A study of Mus musculus with 6 samples.

Results

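The 10 genes described here are the repressors and outputs of the circadian clock in mouse embryonic fibroblasts (MEF): the Period genes Per1, Per2 and Per3, the Cryptochrome genes Cry1 and Cry2, the Rev-erb genes Nr1d1 and Nr1d2, the Dec genes Bhlhe40 and Bhlhe41, and Dbp. They were chosen by name, and each matched exactly 1 of the 55335 gene identifiers in the table of counts. Wild-type MEF that had passed a transwell membrane with 3 μm pores and were collected after 15 h (Confine) were compared with parental MEF (Ctrl), a comparison made to find genes that change with confined migration. Both groups are the same cell line, grown in Dulbecco's modified Eagle medium with 10% fetal bovine serum. The deposited columns of Confine replicates 1 and 2 held the same value for each of the 55335 genes and were taken as a single library, named Confine replicate 1 below, so that 3 Ctrl libraries stand against 2 Confine libraries. Nothing in the labels says that the libraries came from separate cultures, so the p-values measure only the spread between these libraries, which may be technical.

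The mammalian clock is a feedback loop of transcription that runs in nearly every cell, fibroblasts included. CLOCK and BMAL1 (encoded by Arntl) bind E-box sequences and activate the Period, Cryptochrome, Rev-erb, Dec and Dbp genes. The PER and CRY proteins then return to the nucleus and repress CLOCK-BMAL1, the REV-ERB receptors repress Arntl in competition with the ROR receptors, and the DEC proteins occupy E-boxes themselves. DBP and its relatives carry the rhythm to output genes through D-box sequences. In cultured fibroblasts, fresh serum, glucocorticoids and cAMP reset the loop through a rapid rise of Per1. The labels give no hour of harvest for the parental cells, so a difference in clock phase between the groups and a difference brought by passage through the pores cannot be told apart. Nor can a change on passage be told apart from a selection of the cells able to pass. The study's migration method, given for wider pores, puts serum only below the membrane, and whether the sequenced cells were handled in this way was not given in the sources used here.

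Letters that match known clock elements were searched for in the RefSeq promoter sequences (GRCm38.p6, 250 bases before to 50 bases after each start), which hold 9 entries for 8 of the 10 genes, and none for Per2 and Bhlhe40. The stretches below are shown because they carry the E-boxes of the 2 members that rose and have one (Bhlhe41 and Per1), those of a member that did not pass the test (Cry1), the D-boxes of the most abundant Period gene (Per3), and the E-boxes of Ciart, a further clock repressor that rose. Capitals mark the E-box CACGTG and its variant CACGTT (read AACGTG on the other strand), and in Per3 the D-box TTATGTAA. Each is written 5′ to 3′ on the strand of its gene, and the Per1 start used is one of 2 RefSeq entries and lies inside the annotated span of the gene.
Bhlhe41, chr6:145865560-145865600, minus strand, from -180 to -140 relative to the start: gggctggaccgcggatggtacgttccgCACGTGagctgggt
Per1, chr11:69098759-69098809, plus strand, from -190 to -140 relative to the start: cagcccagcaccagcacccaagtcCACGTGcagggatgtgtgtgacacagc
Cry1, chr10:85185099-85185149, minus strand, from -95 to -45 relative to the start: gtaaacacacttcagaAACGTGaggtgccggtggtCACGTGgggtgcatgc
Per3, chr4:151044805-151044885, minus strand, from -220 to -140 relative to the start: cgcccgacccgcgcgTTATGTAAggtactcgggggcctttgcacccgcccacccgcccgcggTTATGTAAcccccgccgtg
Ciart, chr3:95882263-95882353, minus strand, just before the start: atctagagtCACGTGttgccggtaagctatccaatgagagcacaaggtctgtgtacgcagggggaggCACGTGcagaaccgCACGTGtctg

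Bhlhe40 rose 6.68-fold, Bhlhe41 6.83-fold and Per1 2.32-fold in Confine, while Nr1d2, the Rev-erb β gene, fell to 0.494 of its Ctrl level. Of the 10 members, all of which passed the filter on low counts, 3 rose and 1 fell at an adjusted p under 0.05 (edgeR's quasi-likelihood test, Benjamini-Hochberg adjustment over all 15881 genes tested). Among all genes tested, 23.0% passed by the same rule, 12.8% as higher and 10.2% as lower, and the median log2 fold change was -0.02 over the members and 0.00 over all genes. With the study's cutoff of 1.5 on the absolute log2 fold change added, 2 members were called (Bhlhe40 and Bhlhe41), both as higher, against 8.00% of all genes (4.89% higher and 3.11% lower). The Ctrl and Confine libraries did not overlap in 5 of the 10 members, 3 with Confine above and 2 with Confine below, against 49.5% of all genes (25.9% and 23.6%), so separation of the groups alone was common in these data. Scaling by library size alone, without TMM factors, moved the median of all genes to -0.21, and 1444 genes then rose and 2805 fell in place of 2035 and 1619. The directions of the 4 members that passed did not turn under it. In bulk RNA, fewer cells that express a gene and less RNA per cell cannot be told apart.

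**Figure D1:**
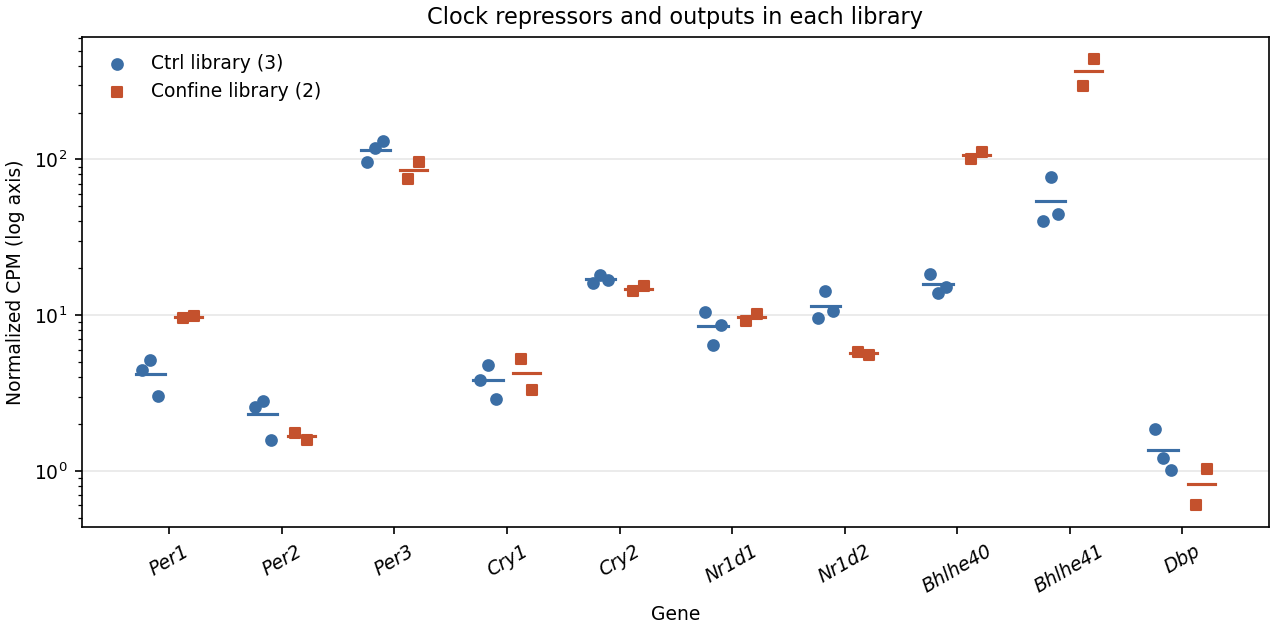
Normalized CPM (counts scaled to effective library size, log axis) of the 10 members in the 3 Ctrl libraries (circles) and the 2 Confine libraries (squares), with a line at each group's mean. The Confine libraries lie above all Ctrl libraries for Per1, Bhlhe40 and Bhlhe41 and below them for Cry2 and Nr1d2.

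The cells carried fibroblast transcripts in both groups. Total counts per library ranged from 22287210 to 32537550. The 10 fibroblast markers summed to 8750 to 9600 normalized CPM in Ctrl and to 15700 to 16500 in Confine, and 5 of the 8 tested rose, while Thy1 had at most 2 counts in any library. Epithelial markers stayed at or under 0.675 and endothelial markers at or under 0.718 summed CPM. Of the 9 leukocyte markers, which summed to 15.9 to 18.2 CPM in Ctrl and 35.8 to 41.4 in Confine, 3 rose (Cd68 6.35-fold, Csf1r 2.73-fold and Cd14 1.89-fold, edgeR adjusted p = 3.94e-07, 0.0367 and 0.00444) and Lyz2 fell to 0.160 of its Ctrl level (edgeR adjusted p = 3.53e-05). Csf1r had 20, 14 and 8 counts in Ctrl and 34 and 44 in Confine. Cd79a had 3, 4 and 9 counts in Ctrl and 6 and 1 in Confine, and Ptprc, Adgre1, Itgam and Cd3e had at most 2 in any library. The part of these shifts in the members' differences was not tested.

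Bhlhe40 (ENSMUSG00000030103.11, chromosome 6 from 108660629 to 108666925, plus strand, GRCm38) encodes DEC1, a basic helix-loop-helix repressor that binds E-boxes and is also induced by low oxygen. In normalized CPM, the counts scaled to effective library size, it stood at 18.5, 13.9 and 15.2 in Ctrl but at 101 and 111 in Confine. The lowest Confine library was thus several times above the highest Ctrl library. Its log2 fold change of 2.74 had a standard error of 0.19 (edgeR adjusted p = 7.6e-09), and it ranked 250 of 15881 genes by log2 fold change.

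Bhlhe41 (ENSMUSG00000030256.11, chromosome 6 from 145858243 to 145865558, minus strand) encodes DEC2, the paralogue of DEC1, which is known from human families for its effect on sleep length. It stood at 40.0, 77.3 and 44.5 normalized CPM in Ctrl and at 296 and 441 in Confine. The libraries within each group spread more than those of Bhlhe40, and the groups were still apart. Its log2 fold change of 2.77 had a standard error of 0.25 (edgeR adjusted p = 2.39e-07) and ranked 245 of 15881.

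Transcripts annotated on the other strand share exonic bases with Bhlhe40 (118), Bhlhe41 (1280) and Cry2 (295), and had means of 2.2, 0.2 and 3.8 counts per library. The exons of Bhlhe41 hold 6720 bases in all. How reads of the shared bases were counted is not known, since the strand setting of the counting was not given.

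The rise of both Dec genes came with a rise of hypoxia reporters, which are listed here because DEC1 and DEC2 are known targets of the hypoxia-inducible factors. The 10 reporters summed to 259 to 287 normalized CPM in Ctrl and to 2070 to 2470 in Confine. All 9 that were tested rose (Vegfa, Car9, Bnip3, Ankrd37, Ndrg1, Pdk1, Slc2a1, Adm and Ddit4), against 12.8% of all genes tested. Their median log2 fold change was 3.26, with a range from 1.40 for Ddit4 to 5.59 for Car9. The log2 fold changes of the Dec genes lay within this range. The tenth reporter, Egln3, had at most 2 counts in any library. The list was chosen with earlier results of these data known, so the rise of its genes is a description only. The part of low oxygen in the rise of the Dec genes was not tested.

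Per1 (ENSMUSG00000020893.17, chromosome 11 from 69095217 to 69109960, plus strand), the Period gene that responds fastest to resetting signals, was the other member that rose. It stood at 4.42, 5.18 and 3.02 normalized CPM in Ctrl and at 9.63 and 9.93 in Confine. The Confine libraries were close together and both were above all Ctrl libraries. The rise was 1.21 on the log2 scale, with a standard error of 0.26 (edgeR adjusted p = 0.00185).

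Per2 (ENSMUSG00000055866.9, chromosome 1 from 91415982 to 91459324, minus strand), whose protein is a scaffold of the repressor complex, did not follow Per1. It had 75, 74 and 37 counts in Ctrl and 52 and 40 in Confine, or 2.59, 2.80 and 1.57 against 1.76 and 1.59 normalized CPM. The groups overlapped. Its log2 fold change of -0.47 was not past the threshold (95% interval -1.24 to 0.29, edgeR adjusted p = 0.39).

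Per3 (ENSMUSG00000028957.12, chromosome 4 from 151003652 to 151044665, minus strand), a Period gene that is not required for rhythms, was the most abundant of the 3 per length of exon. It stood at 96.3, 118 and 131 normalized CPM in Ctrl and at 74.5 and 96.7 in Confine, where the higher Confine library just exceeded the lowest Ctrl library. On the log2 scale the difference was -0.43 (95% interval -0.84 to -0.01, edgeR adjusted p = 0.133). It passed the test with library size alone (-0.64, edgeR adjusted p = 0.0232) and with the identical columns counted as 2 samples (-0.50, edgeR adjusted p = 0.0353). The only annotated gene across it, Camta1, shares no exonic base with it.

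The 2 Cryptochrome genes, which encode the strongest repressors of CLOCK-BMAL1, did not pass the test. Cry1 (ENSMUSG00000020038.10, chromosome 10 from 85131700 to 85185064, minus strand) stood at 3.83, 4.76 and 2.89 normalized CPM in Ctrl and at 5.24 and 3.30 in Confine, and the groups overlapped. Its log2 fold change was 0.16 (95% interval -0.48 to 0.80, edgeR adjusted p = 0.767), and it turned to -0.22 without Confine replicate 1, to -0.02 without Ctrl replicate 3 and to -0.06 with library size alone. Cry2 (ENSMUSG00000068742.11, chromosome 2 from 92403646 to 92434043, minus strand) stood at 16.0, 18.1 and 16.8 normalized CPM in Ctrl and at 14.2 and 15.4 in Confine. Both Confine libraries lay just below the Ctrl libraries, with a log2 fold change of -0.19 (95% interval -0.61 to 0.22, edgeR adjusted p = 0.536).

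**Figure D2:**
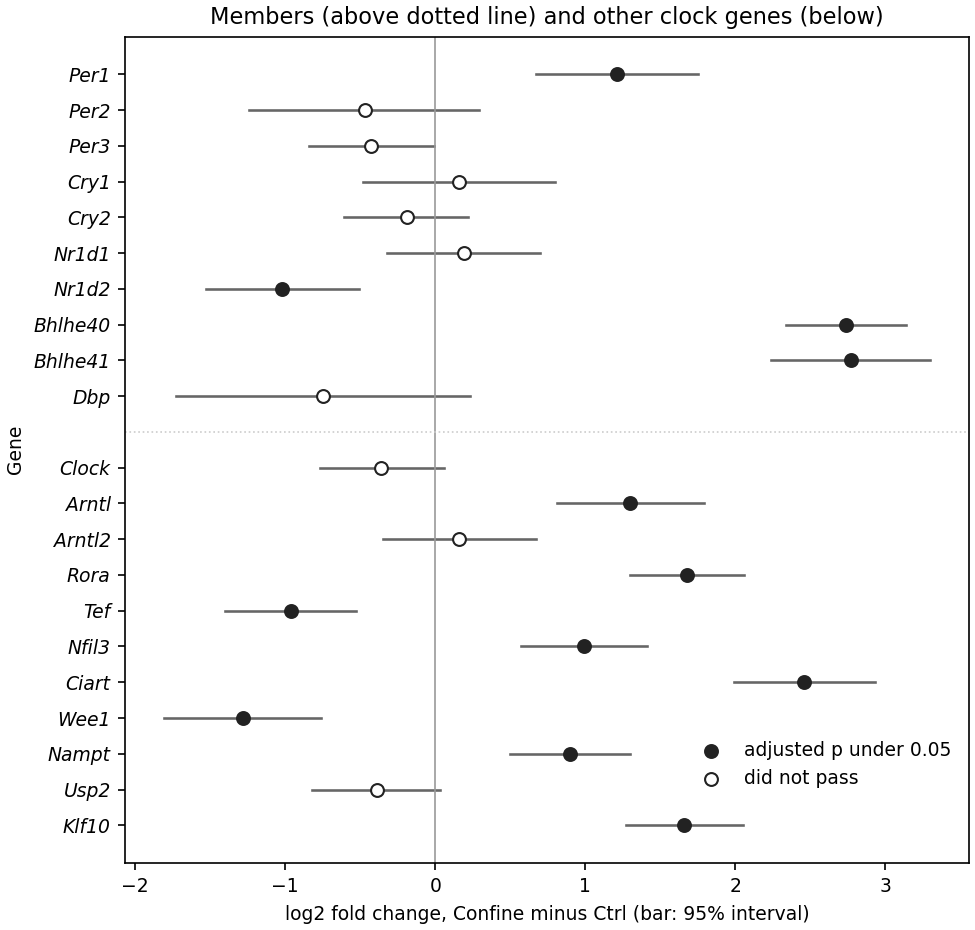
Log2 fold change from Ctrl to Confine (points) with the 95% interval (bars) for the 10 members, above the dotted line, and for 11 other clock genes below it. Filled points passed an edgeR adjusted p under 0.05; the largest values are those of Bhlhe41 (2.77), Bhlhe40 (2.74) and Ciart (2.46), and the lowest is that of Wee1 (-1.28).

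Nr1d2 (ENSMUSG00000021775.11, chromosome 14 from 18204054 to 18239127, minus strand) encodes REV-ERBβ, a nuclear receptor that represses Arntl and its other targets through ROR elements. It stood at 9.64, 14.3 and 10.6 normalized CPM in Ctrl and at 5.84 and 5.52 in Confine. Both Confine libraries were below all Ctrl libraries. The difference of -1.02 on the log2 scale had a standard error of 0.24 (edgeR adjusted p = 0.00463). Without Confine replicate 3 it was -0.98 and no longer passed (edgeR adjusted p = 0.0651), with the lone Confine library then assumed to vary like the Ctrl libraries.

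Nr1d1 (ENSMUSG00000020889.11, chromosome 11 from 98767932 to 98775333, minus strand), the gene of REV-ERBα, stood at 10.5, 6.39 and 8.59 normalized CPM in Ctrl and at 9.16 and 10.2 in Confine. The groups overlapped. The log2 fold change was 0.19 (95% interval -0.32 to 0.70, edgeR adjusted p = 0.633), and -0.01 with library size alone. Its exons share 263 bases with those of Thra on the other strand, and the mean count per library was 2318.0 for Thra and 240.4 for Nr1d1. The libraries keep the strand, but whether the counting used it was not given in the sources used here. How reads of the shared bases were counted is therefore not known. Thra itself had a log2 fold change of 0.52 (edgeR adjusted p = 0.0509).

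Dbp (ENSMUSG00000059824.12, chromosome 7 from 45705088 to 45710203, plus strand), the output gene with the deepest rhythm in many tissues, had few reads. The Ctrl libraries held 54, 32 and 24 of its counts, and the Confine libraries 18 and 26. The groups overlapped. The log2 fold change was -0.75 (95% interval -1.73 to 0.23, edgeR adjusted p = 0.276). Dbp shares 539 exonic bases with Sphk2 on the other strand, and how reads of these bases were counted is not known either. The mean count per library was 30.8 for Dbp and 519.8 for Sphk2, and Sphk2 had a log2 fold change of -0.41 (edgeR adjusted p = 0.176).

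Within each library, the balance between paralogues does not depend on the normalization. The log2 ratio of Per1 to Per2 counts was 0.77, 0.88 and 0.93 in Ctrl and 2.44 and 2.63 in Confine. It was therefore higher in both Confine libraries, by 1.68, with a spread of 0.08 (SD, n = 3) in Ctrl (two-sided exact permutation test, p = 0.1, which is the lowest value this design can give, and 0.5 adjusted over 5 ratios). The log2 ratio of Nr1d1 to Nr1d2 was 0.12, -1.16 and -0.30 in Ctrl and 0.65 and 0.88 in Confine. The groups did not overlap and differed by 1.21, but the Ctrl libraries were widely spread (exact permutation p = 0.2, adjusted 0.5).

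The other 3 ratios overlapped between the groups. Bhlhe40 to Bhlhe41 was -1.11, -2.48 and -1.55 in Ctrl and -1.55 and -1.99 in Confine, so the Dec genes rose with no shift in their balance beyond the spread of the libraries. Per3 to Per2 had a mean of 5.65 in both groups. Cry1 to Cry2 had a mean of -2.17 ± 0.32 (SD, n = 3) in Ctrl and -1.83 ± 0.55 (SD, n = 2) in Confine.

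**Figure D3:**
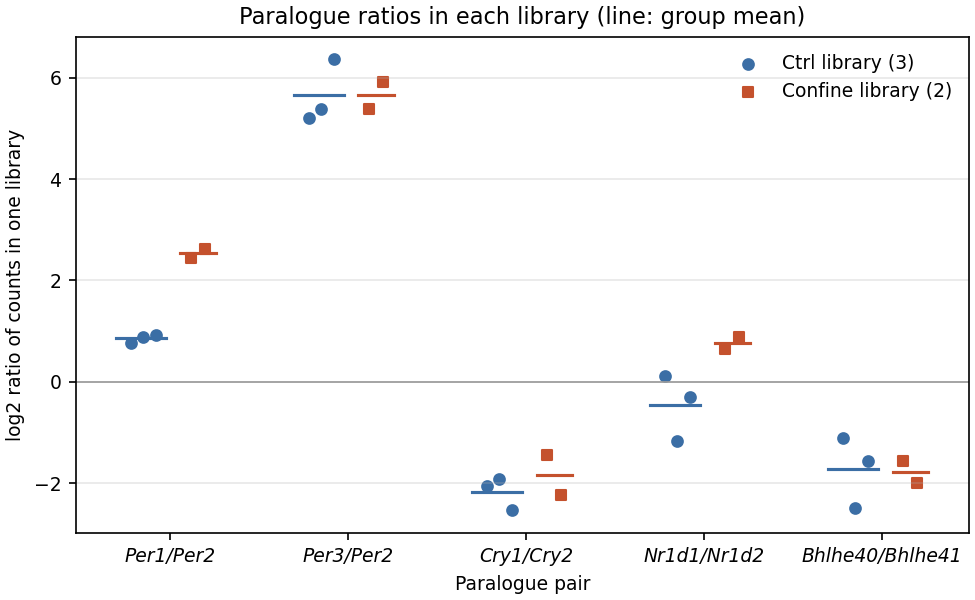
Log2 ratio of the counts of 2 paralogues within each Ctrl library (circles) and each Confine library (squares), with lines at the group means. Per1/Per2 moved from 0.86 to 2.54 and Nr1d1/Nr1d2 from -0.45 to 0.77, and the other 3 pairs overlap between the groups.

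Per length, the members differed widely in level, and their order changed between the groups. The exon lengths took in bases shared with other genes, and how reads of those bases were counted is not known. In Ctrl, Per3 led with 12.0 ± 1.82 normalized CPM per kb of exon (SD, n = 3), followed by Bhlhe41 with 8.02 ± 3.03, and the ranges of these neighbours over the libraries overlapped. Bhlhe40, Nr1d1, Cry2 and Nr1d2 followed with means from 3.37 down to 2.13, each overlapping the next. Cry1 at 1.15 ± 0.280 and Per1 at 0.747 ± 0.194 overlapped as well, and Per1 overlapped Dbp. The neighbours whose ranges over the Ctrl libraries did not overlap were Bhlhe41 and Bhlhe40, and Nr1d2 and Cry1. Compared within each Ctrl library, neighbours kept this order except Nr1d1 and Cry2, and Dbp and Per2, which both changed places in Ctrl replicate 2. Dbp (0.456 ± 0.148) and Per2 (0.396 ± 0.112) were lowest and did not differ beyond their spread.

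In Confine, Bhlhe41 led with 54.8 ± 15.2 normalized CPM per kb (SD, n = 2), followed by Bhlhe40 with 22.5 ± 1.46 and Per3 with 8.91 ± 1.64, and the ranges of these genes over the libraries did not overlap. Nr1d1, Cry2 and Per1 followed at 3.15, 2.34 and 1.74, also without overlap between neighbours. Cry1 (1.28) and Nr1d2 (1.05) overlapped, and so did Per2 (0.286) and Dbp (0.274). The Dec genes together made up 29.9% to 38.5% of the summed level of the 10 members in Ctrl, against 78.6% and 81.5% in Confine. The other 8 members summed to 20.7 to 23.1 normalized CPM per kb in Ctrl and to 17.8 and 20.2 in Confine.

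**Figure D4:**
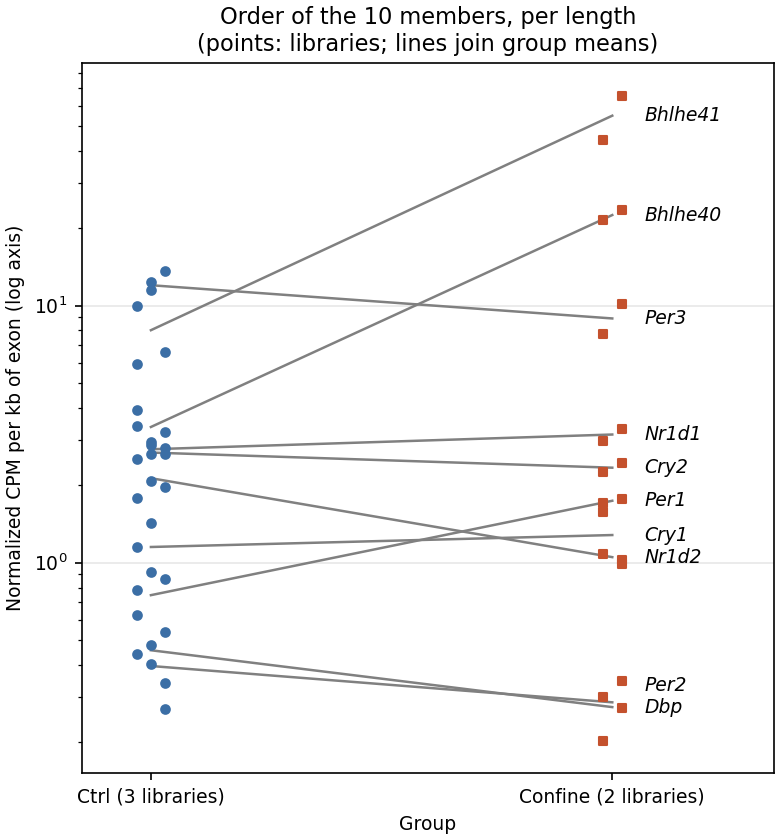
Normalized CPM per kb of exon (log axis) of each member in the Ctrl libraries (circles) and the Confine libraries (squares), with lines that join the group means. Bhlhe41 and Bhlhe40 rise to 54.8 and 22.5 and pass Per3, Per1 rises past Cry1 and Nr1d2, and the remaining lines are nearly flat or fall.

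The rest of the clock was read from 6 lists of 25 further genes: activators, ROR receptors, the relatives of DBP with their competitor NFIL3, the repressor Ciart, kinases and ubiquitin ligases, and other outputs. Of the 20 that were tested, 7 rose, 2 fell and 11 did not pass, against 12.8% higher and 10.2% lower among all genes. The median log2 fold change was 0.16, against 0.00 for all genes. Npas2, Rorb, Hlf and Lonrf3 were among those that did not pass the filter on low counts, with at most 19 counts in any library.

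Among the activators, Arntl rose and its partner Clock did not pass the test. Arntl, which encodes BMAL1, stood at 5.08, 8.31 and 7.65 normalized CPM in Ctrl and at 18.3 and 16.0 in Confine, or 1.30 higher on the log2 scale (standard error 0.23, edgeR adjusted p = 4.25e-04). Clock stood at 24.8 ± 3.86 (SD, n = 3) in Ctrl and 19.4 ± 0.427 (SD, n = 2) in Confine (log2 fold change -0.36, edgeR adjusted p = 0.219). Arntl2 had a log2 fold change of 0.16 (edgeR adjusted p = 0.69).

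Rora, the ROR receptor that activates Arntl where REV-ERB represses it, also rose, from 14.2 ± 0.693 normalized CPM (SD, n = 3) in Ctrl to 45.5 ± 4.18 (SD, n = 2) in Confine. The rise was 1.68 on the log2 scale, with a standard error of 0.18 (edgeR adjusted p = 1.9e-06). The fall of Nr1d2 stood beside a rise of Rora and of Arntl, while Nr1d1 did not pass (log2 fold change 0.19, edgeR adjusted p = 0.633). A link between these changes was not tested.

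Ciart, which encodes the repressor CHRONO, changed most among these genes. It stood at 5.15, 4.80 and 5.06 normalized CPM in Ctrl and at 33.4 and 21.7 in Confine, all well apart. The rise of 2.46 on the log2 scale had a standard error of 0.22 (edgeR adjusted p = 2.33e-07).

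The D-box factors moved in opposite directions. Tef, a relative of Dbp that activates D-box genes, fell from 33.3 ± 6.47 normalized CPM (SD, n = 3) to 17.1 ± 1.61 (SD, n = 2), a log2 fold change of -0.96 (edgeR adjusted p = 0.00205). Without Confine replicate 1 its edgeR adjusted p was 0.064. Nfil3, which represses the same sites, rose from 13.3 ± 1.96 to 26.4 ± 2.70 (log2 fold change 0.99, edgeR adjusted p = 0.00114).

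Among the other outputs, Wee1, the kinase that holds back entry into mitosis, fell from 10.8 ± 1.92 normalized CPM (SD, n = 3) to 4.47 ± 0.587 (SD, n = 2), a log2 fold change of -1.28 (edgeR adjusted p = 8.83e-04). Klf10, a zinc-finger repressor, rose with a log2 fold change of 1.66 (edgeR adjusted p = 2.77e-06). Nampt, the rate-limiting enzyme of NAD salvage, rose with 0.90 (edgeR adjusted p = 0.00192, and 0.054 without Confine replicate 1). Usp2, a deubiquitinase with a strong rhythm in many tissues, had -0.39 (edgeR adjusted p = 0.183).

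Of the 9 kinases and ubiquitin ligases that set the stability of the PER and CRY proteins, 8 did not pass the test. Among all genes tested, 23.0% passed. The median log2 fold change of the list was 0.12. Fbxl21, a ligase for the CRY proteins, had a log2 fold change of 1.69, and from 1.30 to 2.36 when each library was left out. It passed with 4, 7 and 14 counts in Ctrl and 32 and 26 in Confine (edgeR adjusted p = 0.0446). It did not pass in 8 of the 13 alternatives that gave a value, with edgeR and DESeq2 adjusted p up to 0.23.

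**Figure D5:**
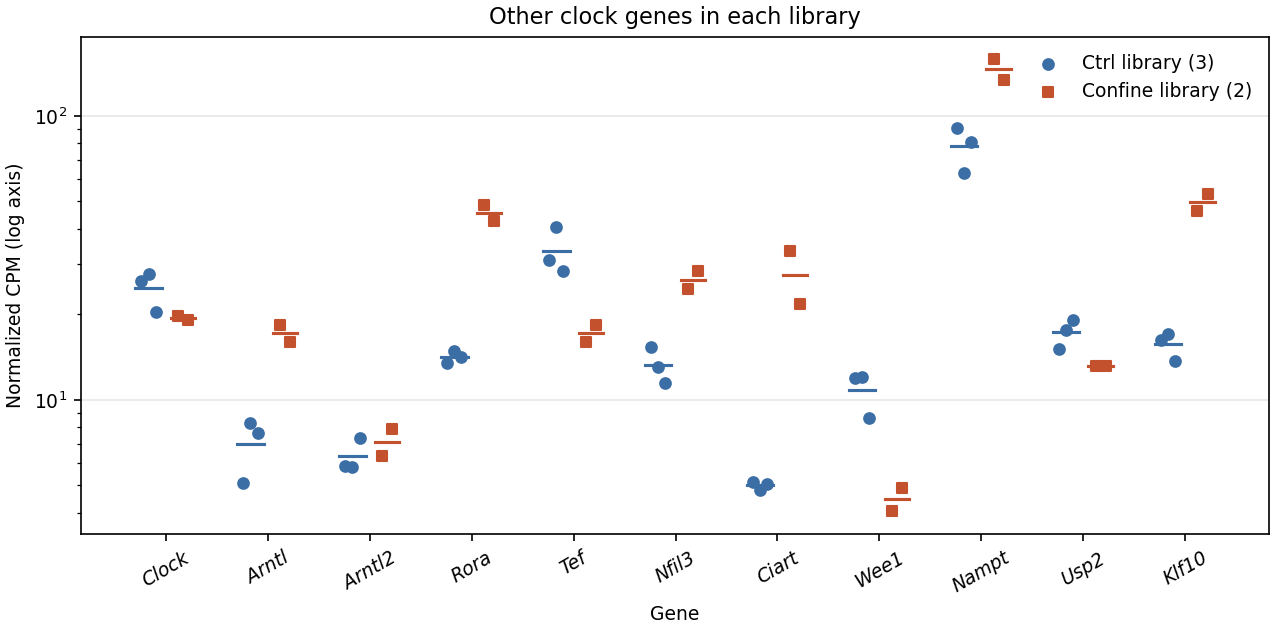
Normalized CPM (log axis) of 11 other clock genes in the 3 Ctrl libraries (circles) and the 2 Confine libraries (squares), with lines at the group means. Arntl, Rora, Nfil3, Ciart, Nampt and Klf10 lie higher in both Confine libraries and passed the test, and Tef and Wee1 lie lower and passed it.

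Signals known to raise Per1 were read from 2 further lists, whose part in the rise of Per1 was not tested. Among all genes tested, 12.8% rose and 10.2% fell. Of 7 genes that respond to cAMP or serum, 4 rose (Crem, Nr4a1, Nr4a3 and Sik1), 1 fell (Fos) and 2 did not pass. Sik1, a kinase that limits the resetting of the clock by light, rose from 4.66 ± 1.33 normalized CPM (SD, n = 3) to 19.6 ± 6.69 (SD, n = 2), a log2 fold change of 2.07 (edgeR adjusted p = 1.17e-05). Crem and Nr4a1 had log2 fold changes of 1.01 and 1.21 (edgeR adjusted p = 0.00329 and 0.00325). Nr4a3 had 1, 2 and 0 counts in Ctrl and 17 and 13 in Confine. Fos, the serum-responsive AP-1 factor, stood at 33.2, 9.56 and 19.2 normalized CPM in Ctrl and at 2.06 and 4.17 in Confine (log2 fold change -2.74, edgeR adjusted p = 8.1e-05). Its log2 fold change ranged from -3.33 to -2.22 when each library was left out. Without Confine replicate 1, Crem and Nr4a3 no longer passed (edgeR adjusted p = 0.112 and 0.0667).

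Of 6 genes that respond to glucocorticoids, 5 were tested. Klf9 and Dusp1 rose (log2 fold changes 0.74 and 0.99, edgeR adjusted p = 0.00932 and 9.43e-04), and Fkbp5 fell (-0.89, edgeR adjusted p = 0.0118). Tsc22d3, a direct receptor target, stood at 45.0 ± 1.06 normalized CPM (SD, n = 3) in Ctrl and 43.3 ± 3.79 (SD, n = 2) in Confine. Klf9 did not pass in 5 of 14 alternatives, and Fkbp5 did not pass without Confine replicate 1 (edgeR adjusted p = 0.186).

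The E-box lay in the promoter window of members that rose and of a member that did not pass. CACGTG was found in 3 of the 8 members with a promoter entry (Per1, Cry1 and Bhlhe41), each with 1 match. It was found in 7.15% of all 32851 RefSeq promoters of the same length. For each motif, members and further clock genes were counted per gene, with a match in any entry, but all promoters per entry. Per1 has 2 entries, and its match lies in 1 of them. Per1 and Bhlhe41 rose and Cry1 did not pass. Of the 13 further clock genes with an entry (kinases and ligases aside), 3 had the E-box: Ciart with 3 matches, which rose, Tef, which fell, and Lonrf3, which was not tested.

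CACGTT, the variant form, was found in Cry1, Cry2 and Nr1d1, none of which passed the test, and in 4.68% of all promoters. Of the 13 further clock genes with an entry, only Rorb had it, which was not tested. The D-box (TTATGTAA or TTACGTAA) was found in Per3, with 2 matches, in 0 of the 13 further clock genes and in 1.06% of all promoters. The ROR element (AANT followed directly by AGGTCA or GGGTCA) was found in 0 of the 8 members and in 0.435% of all promoters, and among the further clock genes in Arntl, 28 bases after one of its starts. The cAMP response element TGACGTCA was found in 0 of the 8 members and in 1.79% of all promoters. Among the further clock genes it was found in Hlf, which was not tested.

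ACGTG, the only form of the hypoxia element core that was searched for, was found in 6 of the 8 members. It was also found in 7 of the 13 further clock genes with an entry and in 19.6% of all promoters. Every CACGTG holds it on both strands and every CACGTT on one, and the match in Dbp was the only one among the members outside such a site. Both strands were searched for each motif. A match describes the letters of these windows only, and more distant elements were not read.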

How the data were processed

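RNA-seq was measured in 6 deposited columns, 3 per group. The authors purified polyadenylated RNA, made strand-keeping (dUTP) libraries and deposited raw counts per gene, with no normalization. The submitters' processing notes name Trim Galore 0.6.10, HISAT2 2.1.0, SAMtools 1.5, featureCounts and the build mm10. The strand setting and the annotation used for counting were not given in the sources used here. Columns that matched no sample numbered 0, and 1 of the 6 columns repeated another.

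Gene names, positions and exon lengths came from GENCODE M21 (GRCm38), which held 55154 of the 55335 identifiers without their version. Identical columns entered once. Counts kept by filterByExpr were normalized by TMM (factors 0.91 to 1.08) and tested with edgeR 4.0.16 in R 4.3.3 (quasi-likelihood test, 3 residual degrees of freedom, no replicate block), where the standard error is the log2 fold change over the square root of F. A floor of 3 counts is 0.101 to 0.128 normalized CPM, counting error only. Ratios took 0.5 added to each count. Depth was 22287210 to 32537550 counts per library.

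The alternatives were DESeq2 1.42.0, limma-voom (limma 3.58.1), other normalizations and filters, the replicate block, the identical columns counted as 2 samples, and leaving out each library. The genes named were all members, the activators, ROR receptors and DBP relatives, and listed genes that passed. A few listed genes that did not pass (Usp2, Tsc22d3), the marker genes, and Thra, Sphk2 and Camta1, which overlap members, were named after their values were seen. The members and lists were chosen with earlier results of these data known. The scripts were tested on simulated data. The values of 1 of the listed genes are not reported here.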

Additional observations from a re-analysis of the deposited data

How the results depend on the processing

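Across 14 alternatives, the number of members that rose stayed at 3 and the number past both cutoffs at 2, with Bhlhe40 between 2.53 and 2.87, Bhlhe41 between 2.45 and 3.12 and Per1 between 1.00 and 1.40. The number that fell was 2 with library size alone, with both identical columns kept as samples, and in the replicate block fit that took the repeated library as number 1, where Per3 joined (edgeR adjusted p = 0.049 with the block). It ranged from 0 to 1 when each library was left out. Listed genes that fell numbered 7 with library size alone and from 2 to 4 when each library was left out, against 4. Same-numbered libraries did not deviate together, with the repeated library as number 1 or 2 (correlation of their differences 0.05 or -0.05). These correlations ran across 15881 genes, which are not independent. The numbers were therefore not taken to pair the samples. With the repeated library as number 1, Ctrl replicate 2 stood alone in its block and added nothing to the comparison. Per3 had -0.40 in that fit and -0.41 without Ctrl replicate 2. With it as number 2, Ctrl replicate 1 stood alone. With the block, 4933 or 2528 genes passed in place of 3654, 2256 passed without Confine replicate 1 and 2054 without Confine replicate 3. Genes that fell numbered 2805 with library size alone and 2456 with the identical columns as 2 samples, against 1619, and 812 genes passed both cutoffs with at least 10 counts in every library, against 1271.

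Small values turned sign. Scaled by library size alone, Cry1 had a log2 fold change of -0.06, Nr1d1 -0.01 and Arntl2 -0.04. The same scaling moved the median of all genes to -0.21. When each library was left out, Cry1 ranged from -0.22 to 0.45, and the change in log2 ratio from -0.26 to 0.35 for Per3/Per2, from -0.05 to 0.73 for Cry1/Cry2 and from -0.44 to 0.24 for Bhlhe40/Bhlhe41, which was 0.02 with the identical columns as 2 samples. The cause was not tested. Of 530 values of 38 genes, 502 kept their direction and side of the threshold, 19 lost it, 4 gained it and 5 reversed. Counts were lowest for Dbp and Per2 among the members, and their intervals were the widest.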
